A study of Zea mays with 8 samples.

Results

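The drought change of each maize gene in the ovary was set against its drought change in the basal leaf meristem, as the ovary's drought minus control difference less the leaf meristem's. A gene entered the comparison if its mean was at least 1 FPKM (fragments scaled to transcript length and to the number of mapped fragments) in the ovary table and in the leaf table. A further 534 genes were dropped because both libraries of at least 1 group listed them at exactly 0. This left 19718 genes of the 28667 identifiers listed in either table. Of these, 1689 had a gene symbol other than an automatic locus name.

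The plants were of the inbred line B73 and grew in a greenhouse. The 4 groups had 2 libraries each. The sample labels call them biological replicates, while the description of the whole series speaks of 1 per condition, so the spread between the libraries may be technical. The ovaries under drought came from plants whose irrigation was withheld for 2 to 3 days before hand pollination, and were taken 24 hours after pollination, which is 1 day after pollination. The control ovaries came from well-watered plants at the same stage. The leaf meristems under drought and the well-watered leaf meristems were the bases of the 3 youngest leaves, taken at the same time. The sources used here do not say whether an ovary library and a leaf library share plants. No allele, transgene or other agent is named, and all 4 groups were sampled from pollinated plants.

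A maize ovary that has just been pollinated is a sink: it imports sucrose, cleaves it with invertases, and begins to divide and expand. The base of a grass leaf is also a zone of dividing and expanding cells, fed by the older blade. When soil dries, abscisic acid (ABA) accumulates in plant tissues, and ABA signalling, which type 2C protein phosphatases (PP2C) restrain, induces dehydrins and other protective proteins. Jasmonate, made from fatty acids by lipoxygenases and allene oxide enzymes, is a hormone of wounding and defence whose signalling is restrained by JAZ proteins of the TIFY family.

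Tissue markers separated the tables only in part. All 34 floral MADS-box genes in the ovary table together gave 3377 to 3592 FPKM in drought ovaries and 3137 to 3384 FPKM in control ovaries. The photosynthesis genes listed in each table, 34 in the ovary's and 29 in the leaf's, summed to 1047 to 1095 FPKM in drought ovaries and 1512 to 2128 FPKM in control ovaries, against 29945 to 34112 FPKM in drought leaves and 24659 to 31030 FPKM in control leaves. The leaf table holds 16 of 35 floral MADS-box genes, which summed to 674 to 725 FPKM in drought leaves and 617 to 659.9 FPKM in control leaves. Over the 15 floral genes in both tables the sums did not separate the tissues, with 617 to 653 FPKM in drought ovaries and 639.6 to 642 FPKM in control ovaries, against 669 to 722 FPKM in drought leaves and 616 to 657 FPKM in control leaves. Over the 27 KNOX and leaf patterning genes in both tables the ovary was higher, with 642 to 817 FPKM in drought ovaries and 1019 to 1077 FPKM in control ovaries, against 235 to 251 FPKM in drought leaves and 243 to 267 FPKM in control leaves. Whether the 2 tables share a scaling is not stated, so levels are set side by side across tissues only as a description. In log2(FPKM + 1) over the tested genes, Pearson's r was 0.979 between the ovary drought libraries, 0.969 between the ovary controls, 0.986 between the leaf drought libraries and 0.959 between the leaf controls. Leaf control 2 stood apart: leaf control 1 correlated with the drought leaves about as closely (r of 0.963 and 0.953) as with leaf control 2, and leaf control 2 had r of 0.929 and 0.912 with the drought leaves. Ovary control 2 also stood apart in its sum, with 9212839 FPKM over all genes of its table and 675213 FPKM over the tested genes. The other libraries summed to between 661161 and 843595 FPKM over all genes of their tables. The cause was not tested. No read counts come with the tables, and sequencing depth is unknown.

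The drought change differed between the tissues in 9123 of 19718 genes (46.3%) at an adjusted p under 0.05 in limma. In 4386 genes (22.2%) the ovary change was the more positive, called a positive difference below, and in 4737 genes (24%) it was the more negative. In every called gene all 4 pairwise library differences of the ovary lay beyond all 4 of the leaf, which was so for 34% of tested genes on the positive side and 33.7% on the negative side. Both drought ovaries lay above both control ovaries in 38.1% of tested genes and below them in 41.2%, and both drought leaves lay above both control leaves in 23.3% and below them in 35.8%. The ovary carried most of this. It changed by more than the leaf in 8014 called genes (87.8%), against 74.7% of all tested genes. A change of at least 1 on the log2(FPKM + 1) scale was fitted in 6026 genes in the ovary (30.6%) and in 1189 genes in the leaf (6.03%). Leaving out 1 library at a time left between 2776 and 4452 positive and between 3338 and 5005 negative differences, and the lowest counts of both came without leaf drought 2. Of the 9123 called genes, 5690 were called in all 8 of those fits, and no gene was called in the other direction under any alternative tried. The called gene nearest the threshold was the NAC factor NAC20, with a difference of 0.98 that was not called under 11 of the 19 alternatives that tested it and was 0.65 without ovary control 1, and the nearest one outside it was GRMZM2G089248, with a difference of -0.77.

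Each tissue was also tested within its own table. There limma called 5614 genes up (23.6%) and 7004 genes down (29.5%) in the drought ovary, and 527 genes up (2.35%) and 203 genes down (0.906%) in the drought leaf. Among the 19718 genes tested for the difference these were 4630 up (23.5%) and 5468 down (27.7%) in the ovary and 380 up (1.93%) and 66 down (0.335%) in the leaf. Of the 9123 genes called for the difference, 7630 (83.6%) were called in the ovary and not in the leaf, and 171 (1.87%) in the leaf and not in the ovary. A further 105 (1.15%) were called in opposite directions, 56 in the same direction with unequal size, and 1161 (12.7%) in neither tissue taken alone. The ovary calls were 2257 up and 3543 down without ovary drought 2, 3016 and 4048 without ovary drought 1, and 2692 and 4473 without ovary control 2. The leaf calls rest on few libraries. They numbered 0 in either direction without either of the leaf drought libraries, 1509 up and 479 down without leaf control 1, and 234 up and 141 down without leaf control 2.

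Genes called up in the leaf were spread over all outcomes in the ovary. Of the 380, 123 (32.4%) were also called up in the ovary and 88 (23.2%) were called down there, while 2.66% of the genes called up in the ovary were called up in the leaf. Of the 66 genes called down in the leaf, 19 (28.8%) were called down and 17 (25.8%) up in the ovary. Over all tested genes the ovary called 23.5% up and 27.7% down, and the leaf called 1.93% up. The ovary shares among leaf calls lie near these, apart from the 32.4%, which is higher. Across all 19718 genes the ovary and leaf changes had a Pearson's r of -0.12. This value depends on the leaf control: it was 0.06 with leaf control 1 alone and -0.23 with leaf control 2 alone. The points share libraries within each tissue, so it is given as a description. All changes here are on the log2(FPKM + 1) scale, which understates the change of low genes: with a pseudocount of 5 FPKM in place of 1, 24 of the 102 called genes named here had a difference smaller by more than a factor of 1.5, and with 0.1 FPKM 5 had a difference larger by that factor.

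**Figure D1:**
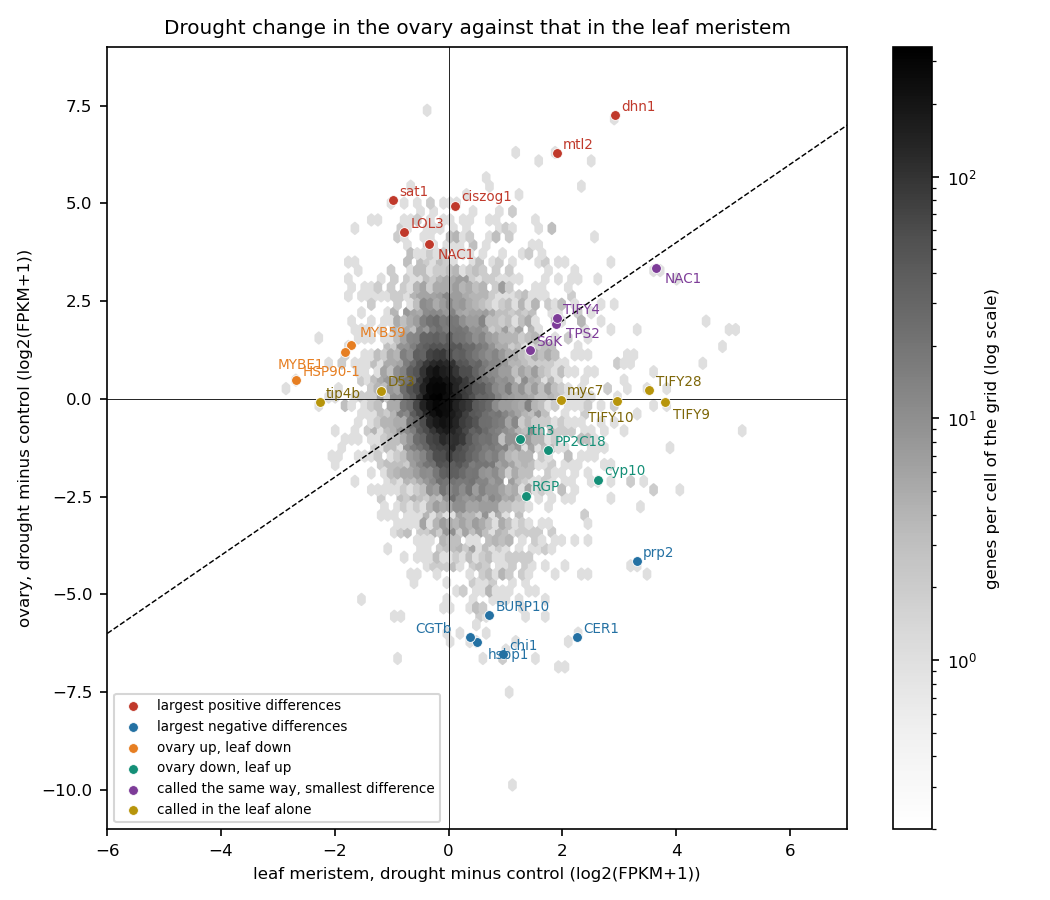
Fitted drought change of the 19718 tested genes in the ovary (vertical axis) and in the leaf meristem (horizontal axis), both drought minus control in log2(FPKM + 1), with the grey scale giving genes per cell of the grid on a log scale. The cloud is taller than it is wide, genes above the dashed line of equal change have a positive difference, and the named genes sit at its edges.

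The largest positive differences among genes with a symbol were in sat1, LOL3, ciszog1, mtl2, dhn1 and the NAC factor GRMZM2G347043. sat1 encodes a serine acetyltransferase, the enzyme that opens cysteine synthesis. It had 64.5 and 106 FPKM in drought ovaries, against 1.84 and 1.16 FPKM in control ovaries, and 18.8 and 18.2 FPKM in drought leaves, against 30.6 and 45.3 FPKM in control leaves. Both drought ovaries were above both controls and both drought leaves below theirs. The ovary change was 5.08, the leaf change -0.98, and the difference 6.05 ± 0.39 (SE; adjusted p = 0.00026, limma). The leaf change of sat1 did not pass the leaf's own test.

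dhn1 encodes a dehydrin, a hydrophilic protein that accumulates in drying plant cells. It had 2559 and 2094 FPKM in drought ovaries and 8.81 and 22.3 FPKM in control ovaries, with 47.4 and 129 FPKM in drought leaves and 17.2 and 4.98 FPKM in control leaves. Drought was above control in both tissues, without overlap. The ovary change of 7.26 exceeded the leaf change of 2.93 by 4.33 ± 0.93 (SE; adjusted p = 0.0082, limma). A second dehydrin, dhn2, was called up in both tissues: it had 461 and 320.0 FPKM in drought ovaries and 84.1 and 80.8 FPKM in control ovaries, and 396 and 401 FPKM in drought leaves and 162 and 184 FPKM in control leaves. Its difference was smaller, 1.01 ± 0.27 (SE; adjusted p = 0.02, limma), and was not called without leaf control 2 (adjusted p = 0.051) or without ovary control 2 or either leaf drought library (adjusted p = 0.058 to 0.060).

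ciszog1, which encodes a cis-zeatin O-glucosyltransferase that stores cytokinin as a glucoside, was called in the ovary and not in the leaf. It had 59.9 and 131 FPKM in drought ovaries and 2.81 and 1.23 FPKM in control ovaries. In the leaf it was near 1 FPKM throughout, with 1.25 and 1.00 FPKM in drought leaves and 0.884 and 1.06 FPKM in control leaves. The difference was 4.84 ± 0.54 (SE; adjusted p = 0.00081, limma). mtl2 was called up in both tissues, with 331 and 350.5 FPKM in drought ovaries and 2.62 and 4.31 FPKM in control ovaries, and 62.0 and 45.7 FPKM in drought leaves and 10.99 and 16.5 FPKM in control leaves. LOL3 was called up in the ovary by 4.26 and had a leaf change of -0.78. Its control ovaries were far apart, at 12.0 and 1.16 FPKM, against 72.6 and 140.5 FPKM in drought ovaries.

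NAC factors are plant transcription factors, several of which act in senescence and drought. Of 13 tested, 8 had a positive difference and 0 a negative one, or 61.5% and 0%, with a median difference of 0.95 against 0.02 over all tested genes. Over all tested genes 22.2% had a positive and 24% a negative difference. The lists were matched on symbols, and the 1689 tested genes with a symbol had 21% and 31%, with a median difference of -0.18. The count of every list is to be read against both pairs of shares. The lists were chosen with earlier results of these data known, so their shares are given as a description. The NAC count was 5 without leaf control 2 and 4 without leaf drought 2. GRMZM2G347043, one of several genes listed under the symbol NAC1, had 415 and 408 FPKM in drought ovaries and 30.6 and 21.1 FPKM in control ovaries, against 86.6 and 72.4 FPKM in drought leaves and 104 and 96.8 FPKM in control leaves. The drought ovaries stood above all other libraries and the leaf changed little, for a difference of 4.30 ± 0.27 (SE; adjusted p = 0.00026, limma). GRMZM2G014653, also under NAC1, had a difference of 3.08 ± 0.34 (SE). The family was not uniform: GRMZM2G018553, again under NAC1, was called up by 3.34 in the ovary and by 3.65 in the leaf.

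Genes of autophagy, vacuolar proteases and chlorophyll breakdown rose in the ovary, where 13 were called up and 0 down, while in the leaf 2 were called up and 0 down. Of 20 tested, 14 had a positive difference and 0 a negative one, against 22.2% and 24% of all genes, and the count was 12 without leaf control 2 and 8 without leaf drought 2. The median ovary change was 0.91 and the median leaf change -0.22. Atg7, the activating enzyme of autophagosome assembly, had 45.1 and 70.3 FPKM in drought ovaries and 13.2 and 8.02 FPKM in control ovaries. In the leaf it had 5.39 and 4.67 FPKM under drought and 6.76 and 7.70 FPKM in controls. The drought ovaries were above the other 6 libraries, and the difference was 2.79 ± 0.39 (SE; adjusted p = 0.0016, limma). SGR2, a stay-green gene of chlorophyll breakdown, had 8.48 and 16.8 FPKM in drought ovaries and 1.25 and 0.405 FPKM in control ovaries, with 16.8 and 11.7 FPKM in drought leaves and 12.5 and 13.6 FPKM in control leaves. lls1, which encodes the pheophorbide oxygenase of the same pathway, had a difference of 2.62, and see2a, a senescence-enhanced vacuolar protease gene, of 1.75. SGR1, listed under 2 identifiers with nearly equal values, was called up in both tissues and not called for the difference. Its 2 identifiers count separately in the numbers above, the 2 leaf calls included.

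Genes of ABA synthesis and signalling, PP2C included, gave 13 positive and 3 negative differences among 29 tested (44.8% and 10.3%, against 22.2% and 24% of all genes), with a median of 0.61. Of the 21 PP2C genes among them, 10 were positive and 3 negative. PP2C11 had 31.6 and 37.1 FPKM in drought ovaries and 3.64 and 4.17 FPKM in control ovaries, against 1.52 and 1.74 FPKM in drought leaves and 2.87 and 0.915 FPKM in control leaves. The ovary groups did not overlap and the leaf groups did, and the difference was 2.90 ± 0.43 (SE; adjusted p = 0.0021, limma). PP2C18 went the other way and is described with the opposite genes.

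Further transcription factors with large positive differences were the heat shock factor Hsf05 and the homeodomain factor HB45. Hsf05 had 159 and 203 FPKM in drought ovaries and 11.1 and 12.7 FPKM in control ovaries, while the leaf libraries had 75.7 and 86.4 FPKM under drought and 77.6 and 92.7 FPKM in controls. Its difference was 3.88 ± 0.24 (SE; adjusted p = 0.00026, limma), carried by the ovary. HB45 had an ovary change of 3.21 and a leaf change of 0.10. The bZIP and HD-ZIP list, to which HB45 belongs, had 15 positive and 9 negative differences among 43 tested, with 4 negative without either leaf drought library and 5 without ovary control 2. Its most negative was ocl3, an HD-ZIP gene of the outer cell layer, with 4.20 and 5.95 FPKM in drought ovaries and 24.2 and 35.7 FPKM in control ovaries, and 27.2 and 22.2 FPKM in drought leaves and 15.2 and 12.4 FPKM in control leaves. ocl3 was called down in the ovary by -2.34. Its leaf change of 0.80 was not called.

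Among nitrogen, sulfur and amino acid genes, 6 of 15 had a positive and 2 a negative difference. asn3, an asparagine synthetase gene, had 267 and 631 FPKM in drought ovaries and 25.3 and 20.6 FPKM in control ovaries, against 2.35 and 4.43 FPKM in drought leaves and 2.38 and 0.837 FPKM in control leaves. The ovary groups were far apart and the leaf groups overlapped, and the difference was 3.33 ± 0.64 (SE). Auxin and cytokinin genes gave 17 positive and 15 negative differences among 51 tested, or 33.3% and 29.4%, against 22.2% and 24% of all genes. AUX10 had the second largest difference in that list after ciszog1, 4.11 ± 0.62 (SE), with an ovary change of 3.40 and a leaf change of -0.71.

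The largest negative differences among genes with a symbol were in CER1, chi1, prp2, hsbp1, CGTb and BURP10. All 6 were called down in the ovary, and none was called in the leaf. chi1 encodes chalcone isomerase, an early enzyme of flavonoid synthesis. It had 4.98 and 8.45 FPKM in drought ovaries and 484 and 989 FPKM in control ovaries, with 104 and 133 FPKM in drought leaves and 93.6 and 38.3 FPKM in control leaves. The ovary change was -6.53 and the difference -7.48 ± 0.68 (SE; adjusted p = 0.0005, limma). hsbp1 fell to 2.94 and 2.91 FPKM in drought ovaries, against 277 and 305 FPKM in control ovaries, and had 1318 and 1439.7 FPKM in drought leaves and 1191 and 797 FPKM in control leaves. Its difference of -6.72 ± 0.28 (SE; adjusted p = 0.00018, limma) had the smallest error of the 6.

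CER1, known from Arabidopsis as an enzyme of cuticular wax alkane synthesis, fell to 1.67 and 1.21 FPKM in drought ovaries, against 136 and 197 FPKM in control ovaries. In the leaf it had 34.9 and 52.8 FPKM under drought and 40.8 and 1.04 FPKM in controls. Leaf control 1 was within the drought values and leaf control 2 far under them. The difference was -8.33 ± 1.63 (SE; adjusted p = 0.0057, limma) and -6.15 without leaf control 2. prp2 showed the same gap, with 52.8 and 195 FPKM in drought leaves against 78.2 and 0.367 FPKM in control leaves, and 35.8 and 21.5 FPKM in drought ovaries against 477 and 545 FPKM in control ovaries. Its difference of -7.45 ± 2.27 (SE; adjusted p = 0.031, limma) became -4.53 without leaf control 2 and was no longer called under 7 of 20 alternatives, with adjusted p between 0.00023 and 0.098 over all of them. CGTb and BURP10 had differences of -6.45 and -6.25, with ovary changes of -6.08 and -5.54. Of 5 flavonoid genes tested, 4 had a negative difference.

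Leaf control 2 touched the leaf side of many of these genes. Among the 4737 negative differences the ovary and leaf changes had opposite signs in 70.7% with both leaf controls, in 54% with leaf control 1 alone and in 77.9% with leaf control 2 alone. Among the 4386 positive differences these shares were 77.3%, 75.6% and 77.1%. The median leaf change of the negative genes was 0.05 against leaf control 1 and 0.37 against leaf control 2, while their median ovary change was -1.27. The part of leaf control 2 in the sign of the leaf change beyond these values was not tested.

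**Figure D2:**
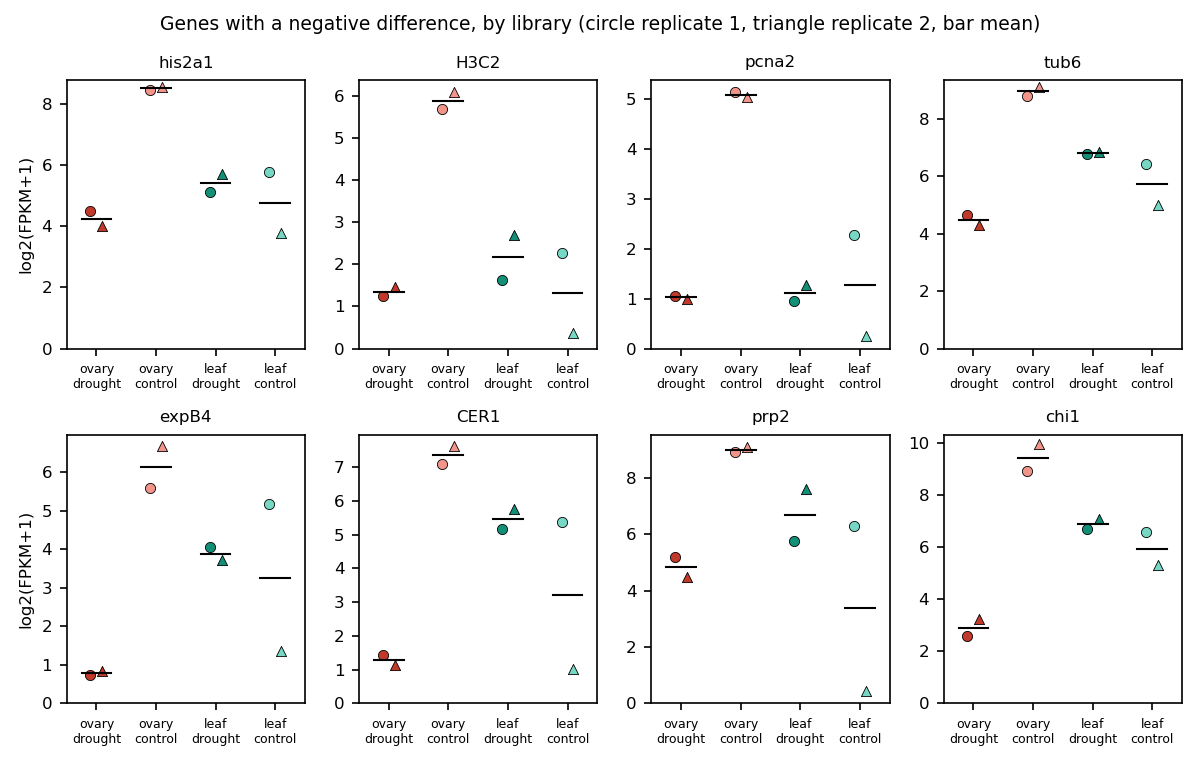
log2(FPKM + 1) of 8 genes with a negative difference in each library, with circles for replicate 1, triangles for replicate 2 and bars for the mean of the 2. In each panel both drought ovaries lie under both control ovaries, as in 41.2% of tested genes, and leaf control 2 lies under leaf control 1 and under both drought leaves.

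Lists of cell division and growth genes held mostly negative differences. All 11 histone genes had a negative difference, with a median of -3.82, and 10 were called down in the ovary while 0 were called in the leaf. Without leaf control 2 the count was 10. his2a1, a histone H2A gene, had 21.4 and 15.0 FPKM in drought ovaries and 352 and 371 FPKM in control ovaries, against 33.8 and 51.6 FPKM in drought leaves and 53.6 and 12.6 FPKM in control leaves. The ovary groups were far apart and the leaf groups overlapped. Its difference was -4.91 ± 0.80 (SE; adjusted p = 0.0028, limma). H3C2, a histone H3 gene, had a difference of -5.38 ± 0.84 (SE). Histone transcripts together summed to 872 and 790 FPKM in drought ovaries and 2810 and 3687 FPKM in control ovaries, and to 857 and 1063 FPKM in drought leaves and 787 and 554 FPKM in control leaves. In bulk tissue, fewer dividing cells and less of these transcripts per cell cannot be told apart.

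Of 10 DNA replication genes, 6 had a negative and 0 a positive difference, with a median of -1.34. Only 3 of them averaged at least 5 FPKM in both tables, and over those the median was -0.06 with 1 negative difference. pcna2, the sliding clamp of DNA polymerase, had 1.09 and 0.986 FPKM in drought ovaries and 34.3 and 32.0 FPKM in control ovaries, while its leaf levels were low, 0.934 and 1.43 FPKM under drought and 3.88 and 0.184 FPKM in controls. RNRS3, a ribonucleotide reductase small subunit gene that serves nucleotide supply, had 1.01 and 0.301 FPKM in drought ovaries and 26.0 and 32.0 FPKM in control ovaries. Their differences were -3.92 ± 0.79 and -4.34 ± 0.67 (SE). Of 6 cyclin and kinase genes tested, 2 had a positive and 0 a negative difference, with a median of 0.58. This depends on the filter. With every gene averaging above 0 FPKM in both tables, 10 were tested, with 2 positive and 4 negative. Their median was then -0.02.

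Cytoskeleton and wall genes showed the same sign. Of 22 tubulin, kinesin and actin genes, 18 had a negative and 2 a positive difference, with a median of -2.26. The beta-tubulin gene tub6 had 23.8 and 18.5 FPKM in drought ovaries and 444 and 551 FPKM in control ovaries, against 109 and 112 FPKM in drought leaves and 84.8 and 31.3 FPKM in control leaves. Its drought ovaries were the lowest of the 8 libraries, and its difference was -5.58 ± 0.57 (SE; adjusted p = 0.00062, limma). tub4, another beta-tubulin gene, had a difference of -4.12. Of 22 expansin and cellulose synthase genes, which loosen and build the growing wall, 20 had a negative and 1 a positive difference, with a median of -2.89.

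expB4 and expB6 encode beta-expansins. expB6 had 0.514 and 1.33 FPKM in drought ovaries and 149 and 273 FPKM in control ovaries, with 39.6 and 16.8 FPKM in drought leaves and 45.9 and 52.97 FPKM in control leaves. Drought was below control in both tissues, and the ovary change of -6.75 exceeded the leaf change of -0.90 in size. expB4 had 0.670 and 0.782 FPKM in drought ovaries and 47.1 and 101 FPKM in control ovaries, and in leaves 15.7 and 12.1 FPKM under drought and 35.2 and 1.55 FPKM in controls. Its difference was -5.97 ± 1.48 (SE; adjusted p = 0.014, limma), -4.05 without leaf control 2 and not called without ovary control 2 (adjusted p = 0.055). The lignin list gave 5 negative and 2 positive differences among 7 tested. BM1, the brown midrib gene for cinnamyl alcohol dehydrogenase, had a difference of -3.73, and ccr2, a cinnamoyl-CoA reductase gene, of -2.89.

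Of 30 ribosomal protein genes, 27 had a negative and 0 a positive difference, with a median of -1.36, and the count was 23 without leaf control 2. In this group the ovary moved and the leaf stayed near 0, with median changes of -1.51 and -0.10. RPS27A had 38.1 and 43.0 FPKM in drought ovaries and 161 and 237 FPKM in control ovaries, against 97.6 and 104 FPKM in drought leaves and 111 and 102 FPKM in control leaves. rps21b had a difference of -2.09 ± 0.19 (SE), and its 4 leaf libraries spanned 72.2 to 78.9 FPKM. Ribosomal protein genes occur as near-identical copies, and some identifiers here carried almost the same values, so how reads were split between copies is uncertain. Translation factors gave 1 positive and 1 negative difference among 9.

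Photosynthesis genes gave 12 negative and 0 positive differences among 24 tested, with a median of -0.91. Of the 29 listed in both tables, 24 were higher in every leaf library than in any ovary library and 2 were higher in every ovary library. lhcb6, a light-harvesting antenna gene, had 4.31 and 5.01 FPKM in drought ovaries and 77.3 and 118 FPKM in control ovaries, against 1124 and 1273 FPKM in drought leaves and 786 and 759 FPKM in control leaves. It was called down in the ovary by -4.10. Its leaf change of 0.63 was not called although both drought leaves were above both controls, and the difference was -4.73 ± 0.29 (SE; adjusted p = 0.00026, limma). psbs1, which encodes the photosystem II protein of energy dissipation, had a difference of -3.61 ± 0.48 (SE), and rbcS, a Rubisco small subunit gene, of -3.58.

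Of 14 genes for sucrose and hexose use, 2 had a positive and 5 a negative difference, and the 50% called is near the 46.3% of all genes. sut1, a sucrose transporter gene, had 106 and 129.9 FPKM in drought ovaries and 19.4 and 8.59 FPKM in control ovaries, against 390.4 and 388 FPKM in drought leaves and 309 and 352 FPKM in control leaves, a difference of 2.84 ± 0.45 (SE; adjusted p = 0.0025, limma). IVR1, a soluble invertase gene, had 0.349 and 1.18 FPKM in drought ovaries and 7.42 and 6.13 FPKM in control ovaries, with 8.64 and 9.57 FPKM in drought leaves and 6.37 and 4.61 FPKM in control leaves. The transporter thus had its positive difference and the invertase a negative one of -2.83 ± 0.37 (SE), both with the larger change in the ovary. Of 8 starch genes, 5 had a negative and 0 a positive difference, and 3 were negative without leaf drought 2. GBSSIIa, a granule-bound starch synthase gene, had a difference of -3.12 ± 0.50 (SE). zpu1, which encodes a starch debranching enzyme, had a difference of -2.25 that was not called under 8 of 19 alternatives and was -1.45 without leaf drought 2.

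Of the 105 genes called in opposite directions, 88 fell in the ovary and rose in the leaf, and 17 did the reverse. The leaf itself had 380 genes called up and 66 down. Of the 380, 23.2% were called down in the ovary, against 27.7% of all tested genes. Of the 66, 25.8% were called up in the ovary, against 23.5% of all tested genes. Both shares are near those of all genes. With tissue calls from the joint fit over all 8 libraries the number in opposite directions was 277. All 105 were called for the difference, which opposite calls from the same libraries make likely. It adds no support for the opposite directions, whose leaf calls rest on few libraries, as given above. Only 7 of the 105 had a symbol, and all 7 are named here. cyp10 had 0.395 and 0.356 FPKM in drought ovaries and 5.17 and 4.34 FPKM in control ovaries, against 28.2 and 42.9 FPKM in drought leaves and 4.85 and 4.73 FPKM in control leaves. The ovary and leaf controls were near the same level and the drought libraries parted in opposite directions, for a difference of -4.69 ± 0.30 (SE; adjusted p = 0.00026, limma). 

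RGP, a reversibly glycosylated polypeptide of the family that supplies arabinose for the cell wall, had 56.7 and 63.2 FPKM in drought ovaries and 341 and 333 FPKM in control ovaries, and 261 and 227 FPKM in drought leaves and 104 and 86.3 FPKM in control leaves. Its ovary change was -2.47, its leaf change 1.35 and its difference -3.83 ± 0.22 (SE; adjusted p = 0.00026, limma). PP2C18 had 14.6 and 12.2 FPKM in drought ovaries and 38.4 and 31.4 FPKM in control ovaries, against 35.0 and 32.5 FPKM in drought leaves and 12.0 and 7.26 FPKM in control leaves. It fell in the ovary and rose in the leaf while PP2C11 rose in the ovary. rth3, a COBRA-like gene needed for root hairs in maize, had 4.83 and 5.83 FPKM in drought ovaries and 13.5 and 10.6 FPKM in control ovaries, and 24.4 and 23.2 FPKM in drought leaves and 8.00 and 10.9 FPKM in control leaves.

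The 3 genes with a symbol that rose in the ovary and fell in the leaf were HSP90-1 and the MYB-family genes MYB59 and MYBE1. HSP90-1, a chaperone gene, had 56.0 and 51.1 FPKM in drought ovaries and 35.7 and 39.9 FPKM in control ovaries, against 15.7 and 11.01 FPKM in drought leaves and 106 and 75.8 FPKM in control leaves. Most of its difference of 3.17 ± 0.30 (SE; adjusted p = 0.00053, limma) came from the leaf change of -2.68, with an ovary change of 0.49. MYB59 had 18.1 and 18.4 FPKM in drought ovaries and 7.77 and 5.29 FPKM in control ovaries, and 10.7 and 10.5 FPKM in drought leaves and 31.9 and 43.1 FPKM in control leaves. MYBE1 had 30.3 and 29.9 FPKM in drought ovaries and 13.0 and 12.1 FPKM in control ovaries, with 2.52 and 2.401 FPKM in drought leaves and 11.02 and 11.5 FPKM in control leaves. In both MYB genes the replicates of each group lay close together and no groups of a tissue overlapped. Their differences were 3.08 ± 0.29 and 3.03 ± 0.19 (SE).

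**Figure D3:**
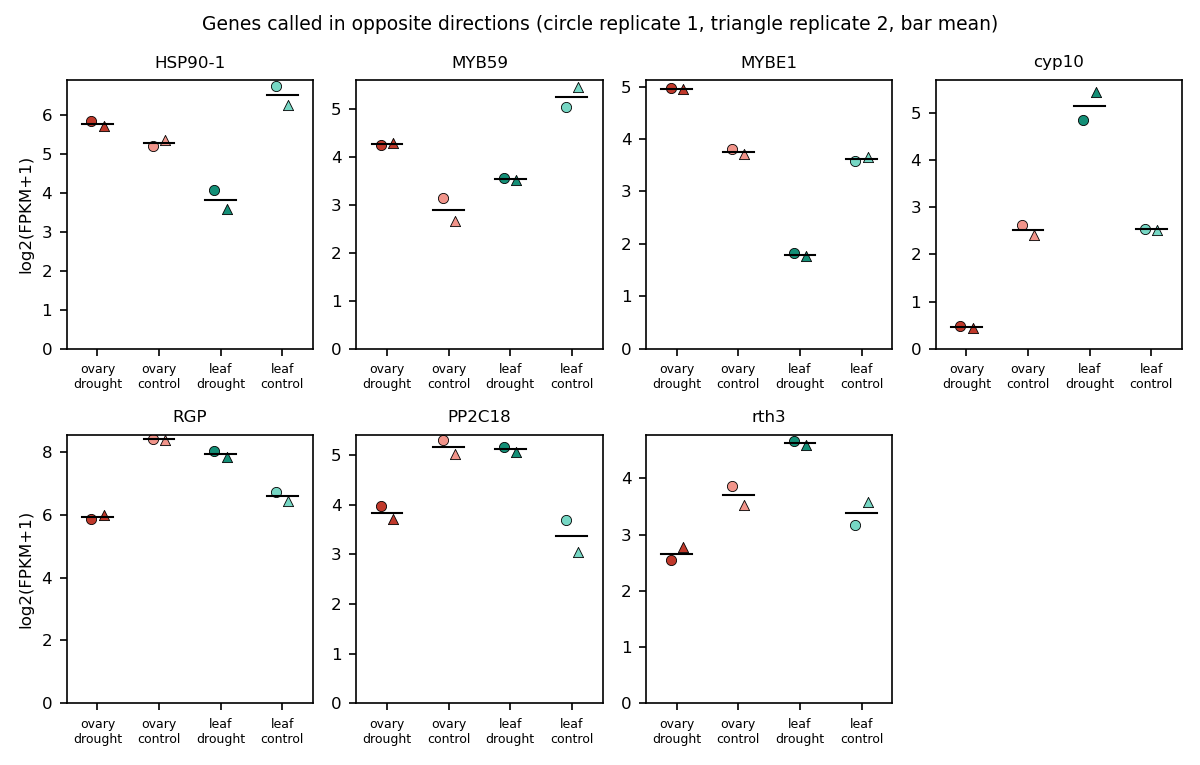
log2(FPKM + 1) in each library of the 7 genes with a symbol that were called in opposite directions, with circles for replicate 1, triangles for replicate 2 and bars for the mean of the 2. HSP90-1, MYB59 and MYBE1 rise under drought in the ovary and fall in the leaf, and cyp10, RGP, PP2C18 and rth3 fall in the ovary and rise in the leaf.

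The leaf led in 171 called genes, 145 of them up in the leaf and 26 down, with no call in the ovary. The jasmonate pathway list held 4 of the 19 identifiers with a symbol. Of its 39 tested genes, 16 had a negative and 1 a positive difference, or 41% and 2.56%. These shares were 24% and 22.2% of all genes and 31% and 21% of genes with a symbol. In all 43.6% were called, against 46.3% of all genes and 52% of genes with a symbol. The median difference was -1.19, and -0.61 without leaf control 2. The median ovary change was -0.01 and the median leaf change 0.91. In the leaf 5 were called up, and in the ovary 7 were called up and 11 down. Over the 29 genes averaging at least 5 FPKM in both tables, 9 were negative and 0 positive, with a median difference of -0.64.

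Of these 4, 3 were TIFY genes, whose JAZ-type products repress jasmonate signalling and are themselves induced by it. TIFY9 had 0.7497 and 0.934 FPKM in drought ovaries and 2.19 and 0.182 FPKM in control ovaries, against 142.2 and 256 FPKM in drought leaves and 15.3 and 10.7 FPKM in control leaves. TIFY28 had 178 and 308 FPKM in drought leaves and 26.8 and 13.9 FPKM in control leaves, with ovary levels of 2.07 and 2.02 FPKM under drought and 4.16 and 0.321 FPKM in controls. Both rose in the leaf and were low in all ovary libraries. Their differences were -3.88 ± 0.66 (SE; adjusted p = 0.0034, limma) and -3.30 ± 0.86 (SE; adjusted p = 0.017, limma). That of TIFY28 was not called without ovary drought 2 or leaf drought 2 (adjusted p = 0.052 and 0.063) or with a pseudocount of 0.1 FPKM (adjusted p = 0.12). TIFY10 had a leaf change of 2.97 and an ovary change of -0.06. myc7, by its symbol a MYC-type bHLH factor, had 23.1 and 21.7 FPKM in drought ovaries and 20.5 and 24.97 FPKM in control ovaries, and 71.7 and 95.5 FPKM in drought leaves and 20.8 and 19.9 FPKM in control leaves. Its ovary groups overlapped and its leaf groups did not, and the difference was -1.99 ± 0.24 (SE; adjusted p = 0.0011, limma).

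The genes of jasmonate synthesis named here were picked from those with a negative difference, all but lox1 after their values were seen. In these the ovary change was negative and the leaf change positive, which the choice favours. Which was the larger varied: they were -2.81 and 0.69 in aoc1, and -0.78 and 1.64 in ts1. Of the whole list 7 genes were called up in the ovary, 4 of them TIFY genes. aoc1, an allene oxide cyclase gene, had 13.2 and 15.1 FPKM in drought ovaries and 78.7 and 140.1 FPKM in control ovaries, with 39.2 and 50.8 FPKM in drought leaves and 35.6 and 20.9 FPKM in control leaves. lox4, a lipoxygenase gene, had 15.7 and 21.5 FPKM in drought ovaries and 35.2 and 30.1 FPKM in control ovaries, and 30.7 and 33.1 FPKM in drought leaves and 13.6 and 8.20 FPKM in control leaves. Both were called down in the ovary and neither was called in the leaf, where the drought libraries were above the controls. aoc2, opr7, lox11, aos3, aos4 and the lipoxygenase gene ts1 were likewise called down in the ovary, with differences between -2.42 for ts1 and -1.77 for aos4. lox1 had the largest difference of the list, -5.30 ± 1.76 (SE; adjusted p = 0.042, limma), from 26.4 and 30.5 FPKM in drought ovaries and 161 and 318 FPKM in control ovaries, and 295 and 460.2 FPKM in drought leaves and 362 and 13.6 FPKM in control leaves. It was -2.98 without leaf control 2 and not called under 7 of 20 alternatives, with adjusted p up to 0.12. The TIFY family was not uniform: among 18 tested, 6 had a negative and 1 a positive difference, and TIFY4 was called up in both tissues.

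**Figure D4:**
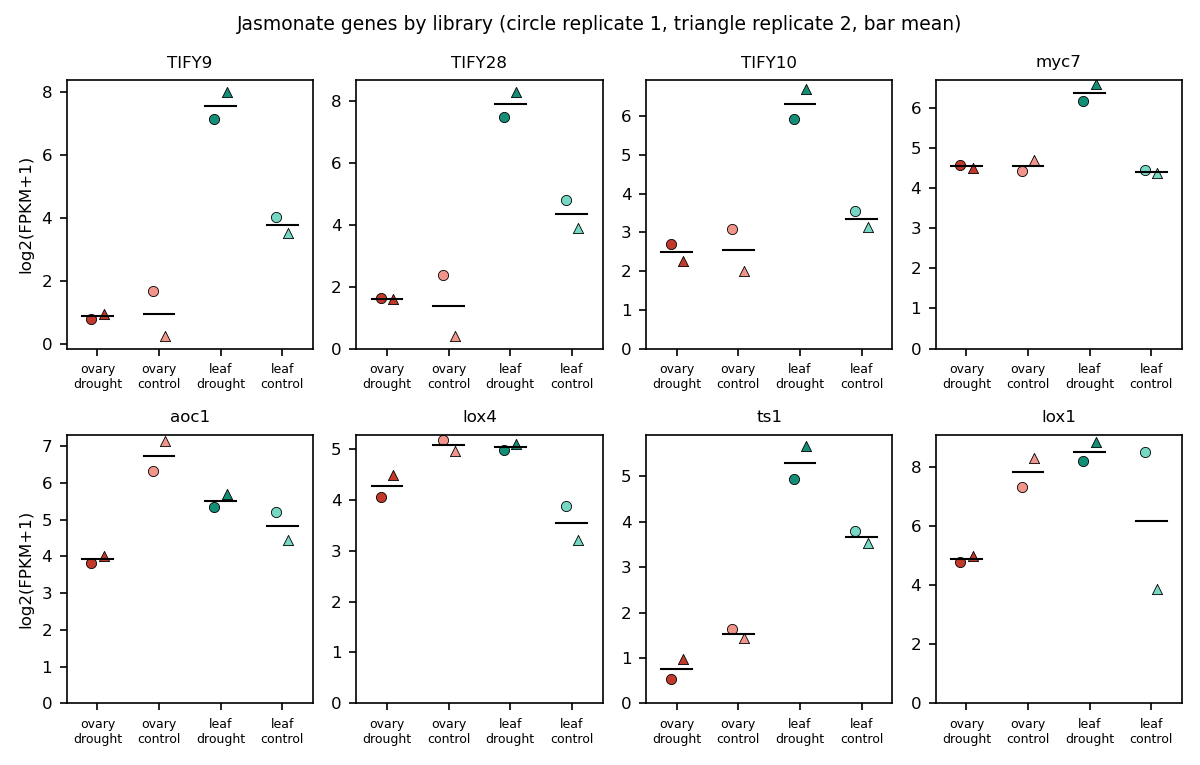
log2(FPKM + 1) of 8 jasmonate genes in each library, with circles for replicate 1, triangles for replicate 2 and bars for the mean of the 2. TIFY9, TIFY28, TIFY10 and myc7 are raised in both drought leaves alone, aoc1, lox4 and ts1 are lower in drought than in control ovaries, and lox1 has leaf control 2 far under leaf control 1.

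The other genes with a symbol that were called up in the leaf alone were GRAS19, GRF1, HMGR, cda2, Rhodopsin, lpa3, EREB98, AUX18, p-au02f03 and the calcium-dependent protein kinase gene CPK39. Together with the TIFY genes, myc7 and the 4 genes that fell in the leaf, named after their values were seen, these are all 19 identifiers with a symbol in this pattern. EREB98 and AUX18, with differences of -0.76 and -0.69, were each not called under 2 alternatives. p-au02f03 had 109 and 109 FPKM in drought leaves and 19.7 and 21.5 FPKM in control leaves, and in the ovary 4.25 and 7.72 FPKM under drought and 6.98 and 7.95 FPKM in controls. cda2, a cytidine deaminase gene by its symbol, had 102 and 153 FPKM in drought leaves and 35.0 and 25.2 FPKM in control leaves, and its ovary change was 0.29. The drought leaves were above the controls in both genes, without overlap. CPK39 was listed under 2 identifiers with almost equal values, and these count as 2 among the 19 and in the other counts of genes. Those down in the leaf alone were D53, whose rice counterpart represses strigolactone signalling, bZIP9, the tonoplast aquaporin gene tip4b and sat2. tip4b had 16.6 and 10.8 FPKM in drought leaves and 65.0 and 71.3 FPKM in control leaves, against ovary levels of 7.65 and 9.77 FPKM under drought and 7.82 and 10.9 FPKM in controls, a difference of 2.18 ± 0.34 (SE; adjusted p = 0.0024, limma). sat2 fell in the leaf while the related sat1 rose in the ovary: sat2 had 5.53 and 4.35 FPKM in drought leaves and 16.5 and 25.4 FPKM in control leaves.

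In 56 called genes both tissues were called in the same direction and the sizes differed. Of these, 28 rose more in the ovary, 22 rose more in the leaf, 5 fell more in the ovary and 1 fell more in the leaf. LOB15, a lateral organ boundaries domain gene, had 13.6 and 20.2 FPKM in drought ovaries and 5.00 and 7.40 FPKM in control ovaries, against 58.3 and 75.2 FPKM in drought leaves and 1.63 and 1.13 FPKM in control leaves. It rose in both, by 1.31 in the ovary and 4.83 in the leaf, a difference of -3.52 ± 0.36 (SE; adjusted p = 0.00065, limma). thi2, of thiamine synthesis, fell in both: it had 1.99 and 0.436 FPKM in drought ovaries and 65.0 and 74.3 FPKM in control ovaries, and 81.4 and 69.96 FPKM in drought leaves and 231 and 209 FPKM in control leaves.

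A further 86 genes were called in the same direction in both tissues and not called for the difference, 73 of them rising and 13 falling. TPS2 had the smallest difference among the named ones, 0.04 ± 0.23 (SE), with 56.0 and 72.6 FPKM in drought ovaries and 17.0 and 15.3 FPKM in control ovaries, and 41.8 and 47.6 FPKM in drought leaves and 12.0 and 10.7 FPKM in control leaves. The kinase gene S6K rose by 1.25 in the ovary and 1.43 in the leaf, TIFY4 by 2.06 and 1.91, and the NAC factor GRMZM2G018553 by 3.34 and 3.65. Their differences were -0.18 ± 0.25, 0.15 ± 0.59 and -0.30 ± 0.63 (SE). A missed threshold does not show that the changes are equal.

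The remaining lists were mixed or small. Of 17 heat shock proteins and chaperones, 9 had a negative and 1 a positive difference, with a median of -1.16, and the positive one was HSP90-1. The negative count was 7 without leaf control 2 and 5 without ovary drought 2. bip1 and bip2, chaperones of the endoplasmic reticulum, had differences of -1.94 and -1.44 and were called down in the ovary. Of 30 antioxidant enzymes and glutathione transferases, 12 were negative and 5 positive. gst1, a glutathione transferase gene, had 48.2 and 50.4 FPKM in drought ovaries and 408 and 444 FPKM in control ovaries, and 977 and 1081 FPKM in drought leaves and 1101 and 535 FPKM in control leaves. GR2b had a difference of -3.10 ± 0.22 (SE) with 4 leaf libraries between 38.3 and 45.1 FPKM.

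Of 39 WRKY and MYB factors, 15 were positive and 9 negative, with 9 positive without leaf drought 2. Myb20 had 0.839 and 0.671 FPKM in drought ovaries and 24.2 and 29.8 FPKM in control ovaries, and its difference was -4.55 ± 0.47 (SE). myb8 had a difference of -4.06. Of 28 bHLH and heat shock factors, 6 were positive and 5 negative (3 negative without ovary control 2, ovary drought 1 or leaf drought 1), with bHLH55 at -2.22. Of 17 AP2/ERF factors, 4 were positive and 6 negative. The AP2/ERF genes sid1 and EREB93 had differences of -1.65 and -1.49. Over all genes 22.2% were positive and 24% negative. Near these were the bHLH and heat shock factors, with 21.4% and 17.9%. WRKY and MYB factors had more positive calls, with 38.5% and 23.1%. AP2/ERF factors had 23.5% and 35.3%, with more negative calls than all genes but near the 21% and 31% of genes with a symbol.

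Of 21 aquaporins, 2 had a positive and 4 a negative difference (9.52% and 19%), with 7 negative without leaf control 2 and 4 positive without leaf control 1, while 11 were called down in the ovary and 2 in the leaf. sbip1b had 1.93 and 2.79 FPKM in drought ovaries and 37.4 and 67.7 FPKM in control ovaries, and Lsi6, the counterpart of a rice silicon transporter, had 0.631 and 1.54 FPKM in drought ovaries and 13.9 and 24.8 FPKM in control ovaries. Their differences were -4.32 and -3.53. Of 15 genes for wax, lipid transfer and defence, 2 were positive and 5 negative, with 8 negative without leaf control 1. Of 10 gibberellin and ethylene genes, 1 was positive and 3 negative. an1, which opens gibberellin synthesis, had 5.68 and 3.20 FPKM in drought ovaries and 2.82 and 0.882 FPKM in control ovaries, and 28.5 and 20.02 FPKM in drought leaves and 45.0 and 63.8 FPKM in control leaves. Its difference of 2.11 ± 0.55 (SE; adjusted p = 0.017, limma) was not called without ovary drought 1 or without leaf drought 2 (adjusted p = 0.055 and 0.062). ACO31 had a difference of -3.24 ± 0.73 (SE).

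Of 11 floral MADS-box genes tested, 2 were positive and 3 negative, or 18.2% and 27.3%, which is near the shares of all genes. The negative count was 1 without ovary control 2, ovary drought 1 or leaf drought 1, and the positive count 0 without leaf drought 2. m18 had 25.1 and 29.4 FPKM in drought ovaries and 151 and 157 FPKM in control ovaries, a difference of -1.85 ± 0.33 (SE), and m29 had a difference of -1.39 that was not called under 3 of 20 alternatives. Of 25 KNOX and leaf patterning genes, 7 were positive and 5 negative, or 28% and 20%, also near those shares. rs2, a MYB gene that represses KNOX genes, had 3.86 and 1.96 FPKM in drought ovaries and 14.1 and 16.4 FPKM in control ovaries. Its difference was -3.20, and in the leaf it was under 5 FPKM in all 4 libraries. Of 5 raffinose and inositol genes 1 was positive and 1 negative. Of 4 genes in the dehydrin and LEA list 2 were positive and 1, COR413-TM1, was negative at -2.42. The symbol COR413-TM1 names neither a dehydrin nor a LEA protein. The 1 endosperm gene tested was not called.

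**Figure D5:**
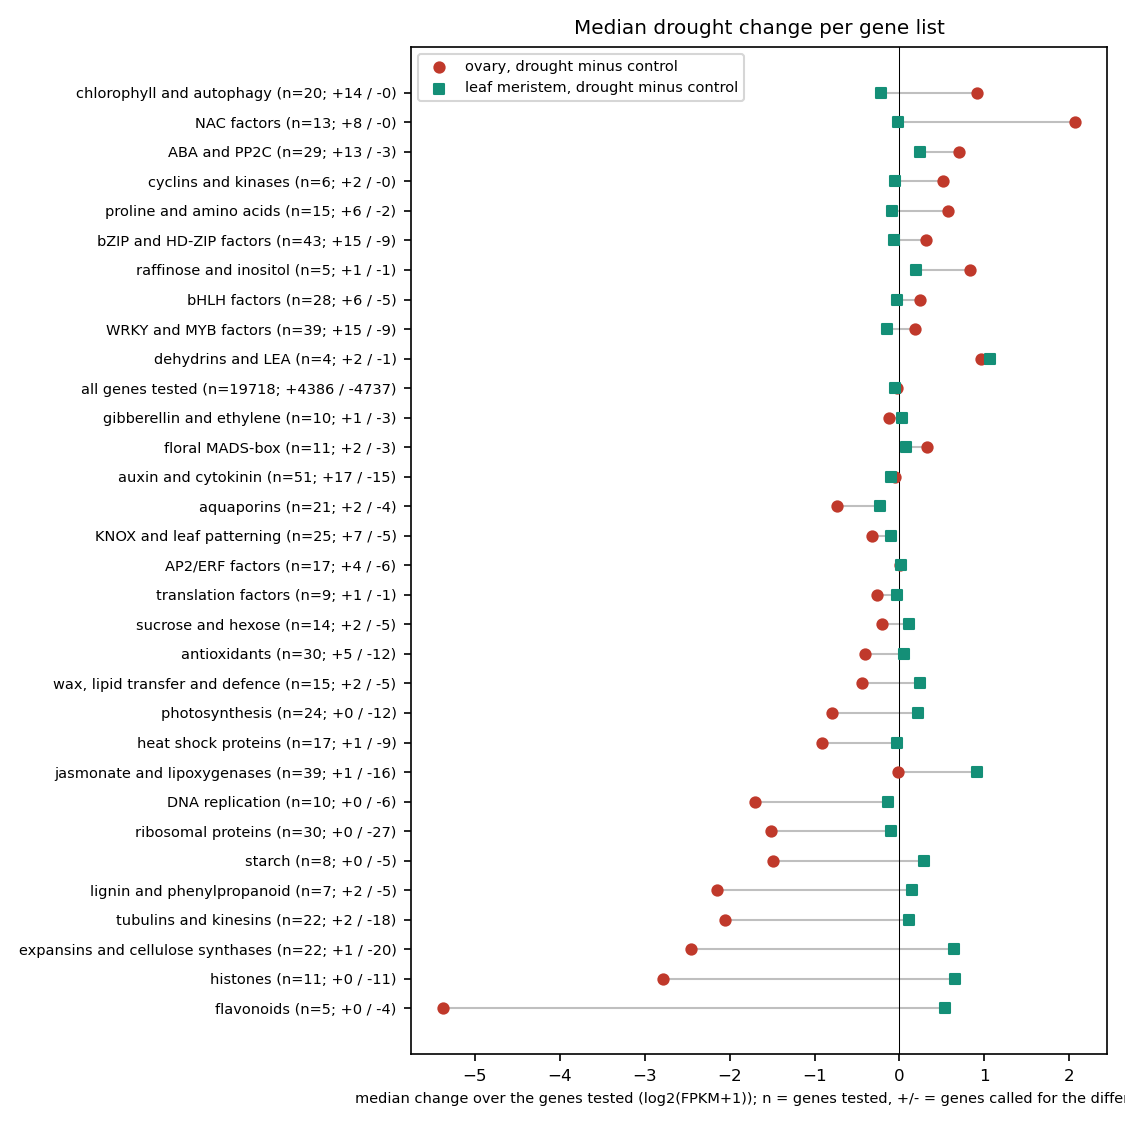
Median drought change, drought minus control in log2(FPKM + 1), over the tested genes of each list with at least 4 such genes, in the ovary (circles) and in the leaf meristem (squares). Labels give the genes tested and how many had a positive or a negative difference. Histones, flavonoids and expansins with cellulose synthases have the lowest ovary medians, NAC factors the highest, and leaf medians lie nearer to 0 in most lists.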

How the data were processed

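Ovaries and basal leaf meristems of maize B73 were sequenced in 8 libraries of polyadenylated RNA, 2 for each tissue and watering, per the labels, whose titles gave the groups and replicate numbers. The sample labels call the replicates biological, the description of the whole series speaks of 1 per condition, and nothing says they came from separate plants. The p-values cover only the spread among these libraries, which may be technical. The authors deposited FPKM values, with a separate table for each tissue. The submitters' processing notes name Cufflinks 1.0.2, TopHat 1.2.0 and CASAVA 1.8. The genome build, settings, counting rule and any further scaling are not given, and no coordinates are printed. The depth is unknown, and counting error cannot be given.

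Symbols came from the synonyms of the RefSeq annotation Zm-B73-REFERENCE-NAM-5.0: 13235 tested identifiers matched 1 reference gene and 377 matched more than 1. No sequences are printed, and promoter motifs were not run.

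limma 3.58.1 in R 4.3.3 was fitted to log2(FPKM + 1) over all 8 libraries, using lmFit and then eBayes with a mean-variance trend. The contrast was the ovary's drought minus control change less the leaf's, with Benjamini-Hochberg adjustment over 19718 genes and a call at an adjusted p under 0.05. The fit has 4 residual degrees of freedom and a prior of 3.46. Each tissue change was tested in its own table, over 23770 ovary and 22418 leaf genes averaging 1 FPKM or more. Values after ± are limma standard errors.

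There were 32 lists, matched on symbols. The members and lists were chosen with earlier results of these data known. Genes were named by rule: among called genes with a symbol and separated library differences, the 6 largest each way, up to 4 each way called in opposite directions, the 2 largest of each list with at least 3 calls, and 4 with the smallest difference among genes called the same way in both tissues averaging 10 FPKM or more in both. Of the genes so named, 1 is not reported here. A further 39 were named after their values were seen. Replicate numbers did not pair the libraries, so no replicate block was used. Alternatives were other pseudocounts, filters, scalings, variance models, replicate blocks and each library left out.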

Additional observations from a re-analysis of the deposited data

Results flagged for a closer look

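The drought change differed between ovary and leaf meristem, by limma's test of the difference itself, in 4386 genes with a positive and 4737 with a negative difference. The values below are that difference on the log2(FPKM + 1) scale, ovary change minus leaf change, for each called gene that the text names.

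Over all tested genes the largest positive differences were 7.81 for GRMZM2G011367, with 934 and 1142 FPKM in drought ovaries and 1.43 and 14.8 FPKM in control ovaries, and 6.09 for GRMZM2G176433. The largest negative ones were -10.94 for AC187262.4_FG007, with 1.99 and 0.220 FPKM in drought ovaries and 1643 and 1948.5 FPKM in control ovaries, and -9.02 for GRMZM2G125441, whose leaf libraries had 1408 and 1928 FPKM under drought and 1741 and 89.7 FPKM in controls. None of these 4 has a symbol, and they were chosen after their values were seen.

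Positive differences were 6.05 for sat1, 5.04 for LOL3, 4.84 for ciszog1, 4.38 for mtl2, 4.33 for dhn1 and 1.01 for dhn2. NAC factors had 4.30 for GRMZM2G347043, 3.08 for GRMZM2G014653 and 0.98 for NAC20. Autophagy and senescence genes had 2.79 for Atg7, 2.77 for SGR2, 2.62 for lls1 and 1.75 for see2a. Others were 2.90 for PP2C11, 3.11 for HB45, 3.88 for Hsf05, 4.11 for AUX10, 2.84 for sut1, 3.33 for asn3 and 2.11 for an1. Genes that rose in the ovary and fell in the leaf had 3.17 for HSP90-1, 3.08 for MYB59 and 3.03 for MYBE1. Genes that fell in the leaf alone had 2.18 for tip4b, 2.85 for sat2, 1.40 for D53 and 1.8 for bZIP9.

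Negative differences led by the ovary were -8.33 for CER1, -7.48 for chi1, -7.45 for prp2, -6.72 for hsbp1, -6.45 for CGTb, -6.25 for BURP10 and -3.56 for thi2. Division and growth genes had -4.34 for RNRS3, -3.92 for pcna2, -5.38 for H3C2, -4.91 for his2a1, -5.58 for tub6, -4.12 for tub4, -5.97 for expB4, -5.85 for expB6, -3.73 for BM1, -2.89 for ccr2, -2.17 for RPS27A and -2.09 for rps21b. Photosynthesis and sugar genes had -4.73 for lhcb6, -3.61 for psbs1, -3.58 for rbcS, -2.83 for IVR1, -3.12 for GBSSIIa and -2.25 for zpu1.

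Regulators, transporters and other genes had -2.42 for COR413-TM1, -1.65 for sid1, -1.49 for EREB93, -3.14 for ocl3, -4.55 for Myb20, -4.06 for myb8, -2.22 for bHLH55, -3.24 for ACO31, -4.32 for sbip1b, -3.53 for Lsi6, -1.85 for m18, -1.39 for m29 and -3.20 for rs2. Stress enzymes and chaperones had -3.51 for gst1, -3.10 for GR2b, -1.94 for bip1 and -1.44 for bip2.

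Genes that fell in the ovary and rose in the leaf had -4.69 for cyp10, -3.83 for RGP, -3.06 for PP2C18 and -2.29 for rth3. Jasmonate genes had -5.30 for lox1, -3.88 for TIFY9, -3.30 for TIFY28, -3.02 for TIFY10, -1.99 for myc7, -3.50 for aoc1, -2.38 for aoc2, -1.86 for opr7, -2.30 for lox4, -2.23 for lox11, -2.16 for aos3, -1.77 for aos4 and -2.42 for ts1. Further genes led by the leaf had -3.52 for LOB15, -2.67 for p-au02f03, -2.22 for GRAS19, -1.89 for GRF1, -1.79 for HMGR, -1.74 for cda2, -1.63 for Rhodopsin, -1.01 for lpa3, -0.76 for EREB98, -0.69 for AUX18, and -1.27 and -1.26 for the identifiers of CPK39.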

How the results depend on the processing

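The count of 4386 positive differences stayed within 1.5 times under 19 of 20 alternatives and that of 4737 negative ones under all 20. Leaving out 1 library gave 2776 to 4452 positive and 3338 to 5005 negative calls. Within tissues, leaving out 1 library gave 2257 to 3791 ovary genes up, 3543 to 4804 down, 0 to 1509 leaf genes up and 0 to 479 down, where each fit has 1 residual degree of freedom and a lone library is assumed to vary like the others. The replicate block gave 230 leaf genes up and 121 down, against 527 and 203 without it, and 5862 ovary genes up and 7283 down. For the difference it gave 3851 positive and 4461 negative calls within each tissue, and 4071 and 4517 over both tissues. The libraries share only a number: the deviations of same-numbered libraries correlated at 0.14 among ovaries and at -0.17 among leaves. Pairing the leaf libraries crosswise, chosen after seeing the data, gave 425 leaf genes up, 186 down, 4337 positive and 4864 negative differences. Tissue calls from the joint fit gave 277 genes in opposite directions, 89 in the same direction and 258 in the leaf alone, against 105, 56 and 171. The cause of these shifts was not tested. Quantile normalization within each table moved the median difference over all genes to 0.13, against 0.02, and gave 54.3% positive calls, against 48.1%.

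Of 102 called genes that the text names, 91 were called under every alternative of the difference in which they were tested, and 0 changed sign. The 11 that were not are NAC20, prp2, zpu1, lox1, dhn2, TIFY28, m29, an1, EREB98, AUX18 and expB4. List counts of 1 or 2 genes often moved by over 1.5 times when 1 library was left out, and larger ones that did are given with their list. With 2 libraries a group, a gene that 1 library sets apart cannot be told from a group difference. The depth of the libraries is unknown, and low FPKM values carry an unknown counting error.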

Other observations

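The genes left out of the comparison for zeros are counted here without a fold or a test. Of the 534 genes, 226 were listed at 0 in both drought ovaries, 173 in both control ovaries, 98 in both drought leaves and 55 in both control leaves, and a gene can stand in more than 1 of these. Of the 534, 52 had a symbol and 26 belonged to a list. They are given as listed at 0 only, since an exact 0 in a table without counts need not mean absence.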
